A study of Mus musculus with 2 samples.

Results

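Axon guidance ligands and receptors were collected by gene symbol. The symbols of the semaphorins of classes 3 to 7, the ephrins, the Slits and the netrins gave the ligands, and those of the plexins, neuropilins, Eph receptors, Robo receptors, Unc5 receptors and Dcc gave the receptors. Of the 31053 genes in the count matrices 68 matched. The 34 ligands were 20 semaphorins, 8 ephrins, 3 Slits and 3 netrins, and the 34 receptors were 14 Eph receptors, 9 plexins, 5 netrin receptors, 4 Robo receptors and 2 neuropilins. For 58 of the 68 genes, 29 ligands and 29 receptors, at least 20 unique molecular identifiers (UMIs, the count of distinct captured transcripts) were found in nuclei annotated as neurons. Sema3d, Efnb3 and Epha8 stood just inside that minimum with 21 UMIs each and Ephb3 with 23, while Sema3f stood just outside with 15 and Ephb4 and Sema3g with 12 each.

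The data come from single nucleus RNA sequencing of the mouse cerebral cortex after a mild traumatic brain injury (mTBI). All animals carried 1 Atf3-CreER allele and 1 Sun1-sfGFP reporter allele over wild type, were more than 7 weeks old, received tamoxifen at 4 and 5 days post injury (dpi), and gave ipsilateral cortex at 7 dpi from which GFP+ nuclei were sorted. There were 2 libraries, male and female, each from a pool of 4 animals. The driver marks cells in which Atf3, an injury-induced transcription factor, was active at the time of tamoxifen, and an uninjured cortex was not analysed here, so the comparisons are between cell types of the injured cortex and not between injury and control. Because animals were pooled, p-values measure the spread between 2 libraries. The public sex field of the female library reads male, but Xist was at 1.95 CPM (UMIs per 1e6 UMIs) in the male library and reached 1662 CPM in the female one, and the Y-linked gene Uty was at 130 and 0.277 CPM. Sex, depth and library cannot be told apart in this design.

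Axon guidance molecules steer growing axons toward or away from tissue, and in the adult brain many of them remain in use at synapses, in glia and in blood vessels. Semaphorins act through plexins, and the secreted class 3 semaphorins need a neuropilin as co-receptor. Ephrins are anchored to the membrane and bind Eph receptor tyrosine kinases on the neighbouring cell, with signals running into both cells. Slits repel axons through Robo receptors, and netrins attract through Dcc and repel through Unc5 receptors. In the cortex these systems are known for routing corticospinal, callosal and corticothalamic axons and for guiding migrating interneurons, and several of the ligands are known as barriers to regrowth after injury of the central nervous system.

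Cell types were taken from the deposited annotation, made by mapping nuclei to a reference atlas. The 9 neuronal labels with at least 50 nuclei held 2499 nuclei, of which 1344 were male and 1155 female. They were 6 excitatory labels, namely the intratelencephalic (IT) labels L2/3 IT CTX-1, L2/3 IT CTX-2, L4/5 IT and L6 IT, the pyramidal tract label L5 PT and the corticothalamic label L6 CT, and 3 inhibitory labels, Pvalb, Sst and Vip. A further 395 neuronal nuclei carried the label Unknown, for a cluster whose cortical origin the authors could not establish, and 4028 nuclei the label Micro-PVM, for microglia and perivascular macrophages. The libraries held 11007313 UMIs in 4044 called barcodes (male) and 23202158 UMIs in 4214 called barcodes (female), and 1 barcode occurred in both among 8171 labelled nuclei. Median UMIs per nucleus over the 9 labels ran from 1506 to 4576 (male) and from 1921 to 11808 (female), so the female library gives the smaller counting error. Where a pair of values follows, the male library stands first and the female library second.

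The labels were checked against marker genes. L6 CT nuclei held Hs3st4 at 2647 and 2421 CPM, L4/5 IT nuclei Rorb at 370 and 355 CPM, and L2/3 IT CTX-1 nuclei Cux2 at 541 and 491 CPM. Vip nuclei held Vip at 146 and 72.2 CPM. Some defining transcripts were nearly absent under their own label: Sst was at 3.77 and 0 CPM in Sst nuclei, Pvalb at 1.58 and 0.516 CPM in Pvalb nuclei, and Fezf2 at 3.06 and 5.78 CPM in L5 PT nuclei. Grin3a set Sst nuclei apart at 469 and 392 CPM. Erbb4, at 1402 and 846 CPM in Pvalb nuclei, was higher in Vip nuclei (3400 and 3206 CPM), as was Cntnap5c. For L5 PT, Bcl11b was lower than in L6 CT (110 and 117 CPM) and Pou3f1 lower than in L2/3 IT CTX-1, so the markers examined do not set the Pvalb and L5 PT labels apart from all others. Nuclei labelled L6 IT also held the interneuron genes Gad1 (65.3 and 14.6 CPM) and Erbb4 (231 and 102 CPM). Only 20 of 87 and 20 of 101 L6 IT nuclei lay in their label's own cluster. For L4/5 IT it was 0 of 100 and 0 of 71, so fits limited to the own cluster lack that label. In Unknown nuclei all 4 neuronal markers had UMIs, but their sum, 7366 and 6757 CPM, was below that of every annotated label and of free RNA (12645 and 11152 CPM). Their most abundant neuronal marker was Meg3 at 3135 and 2685 CPM, against 7186 CPM or more in each annotated sum. Rbfox3, at 1539 and 1712 CPM, was above every annotated sum, the highest of which was 794 CPM. Syt1 (2187 and 1947 CPM) and Snap25 (505 and 414 CPM) lay within the annotated range. Unknown nuclei held Bcl11b, a marker of subcerebral projection neurons, at 356 and 335 CPM against 61.9 and 42.5 CPM in L5 PT. The other L5 PT markers examined were lower in Unknown than in L5 PT nuclei. Fezf2 was at 0 CPM in both libraries, Parm1 at 16.0 and 14.5 against 33.7 and 75.8 CPM, and Pou3f1 at 1.06 and 0.631 against 9.80 and 7.52 CPM.

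Free RNA from broken cells enters every droplet. All 10 microglial markers examined had UMIs in L5 PT nuclei of both libraries, with a summed level of 571 and 869 CPM against 6636 and 6718 CPM in Micro-PVM nuclei. Barcodes with at most 100 UMIs were pooled as a measure of free RNA, and the level of each guidance gene in that pool is given where it bears on a result. The part of free RNA and of mixed nuclei in the differences between labels was not tested beyond the recalculations named with each result.

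The members together took 0.667% of all UMIs in annotated neurons, 47119 UMIs in the 29 ligands kept and 69232 in the 29 receptors kept. Here and wherever total UMIs of a member in neurons are given, labels under 50 nuclei such as L5 IT and Lamp5 are included. The main tests used the 9 labels only. Nuclear transcripts include introns, so long genes collect more UMIs. For each family the member with the most UMIs is given, with its UMIs per kb of exon, a scale that does not remove the share of introns. Among the ligands Efna5, an ephrin-A that restricts axons in topographic maps, had the most UMIs of the ephrins (12132, or 3009 per kb of exon), Sema6d of the semaphorins (11390, or 1079 per kb), Slit3 of the Slits (8367, or 1379 per kb) and Ntn1 of the netrins (501, or 79.8 per kb). On the receptor side Epha6 led the Eph receptors (6683 UMIs, or 1264 per kb), Plxna4 the plexins (10484, or 743 per kb), Robo2 the Robo receptors (7068, or 416 per kb) and Nrp1 the neuropilins (2378, or 243 per kb). Dcc had the most UMIs of the netrin receptors (7204, or 547 per kb), but Unc5d was ahead of it per kb of exon (661). Per kb of gene span, introns included, Sema7a (36.7) was ahead of Sema6d (19.7), Epha10 (36.6) of Epha6 (7.02), Plxna2 (29.0) of Plxna4 (23.6) and Unc5d (10.6) of Dcc (6.56).

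**Figure D1:**
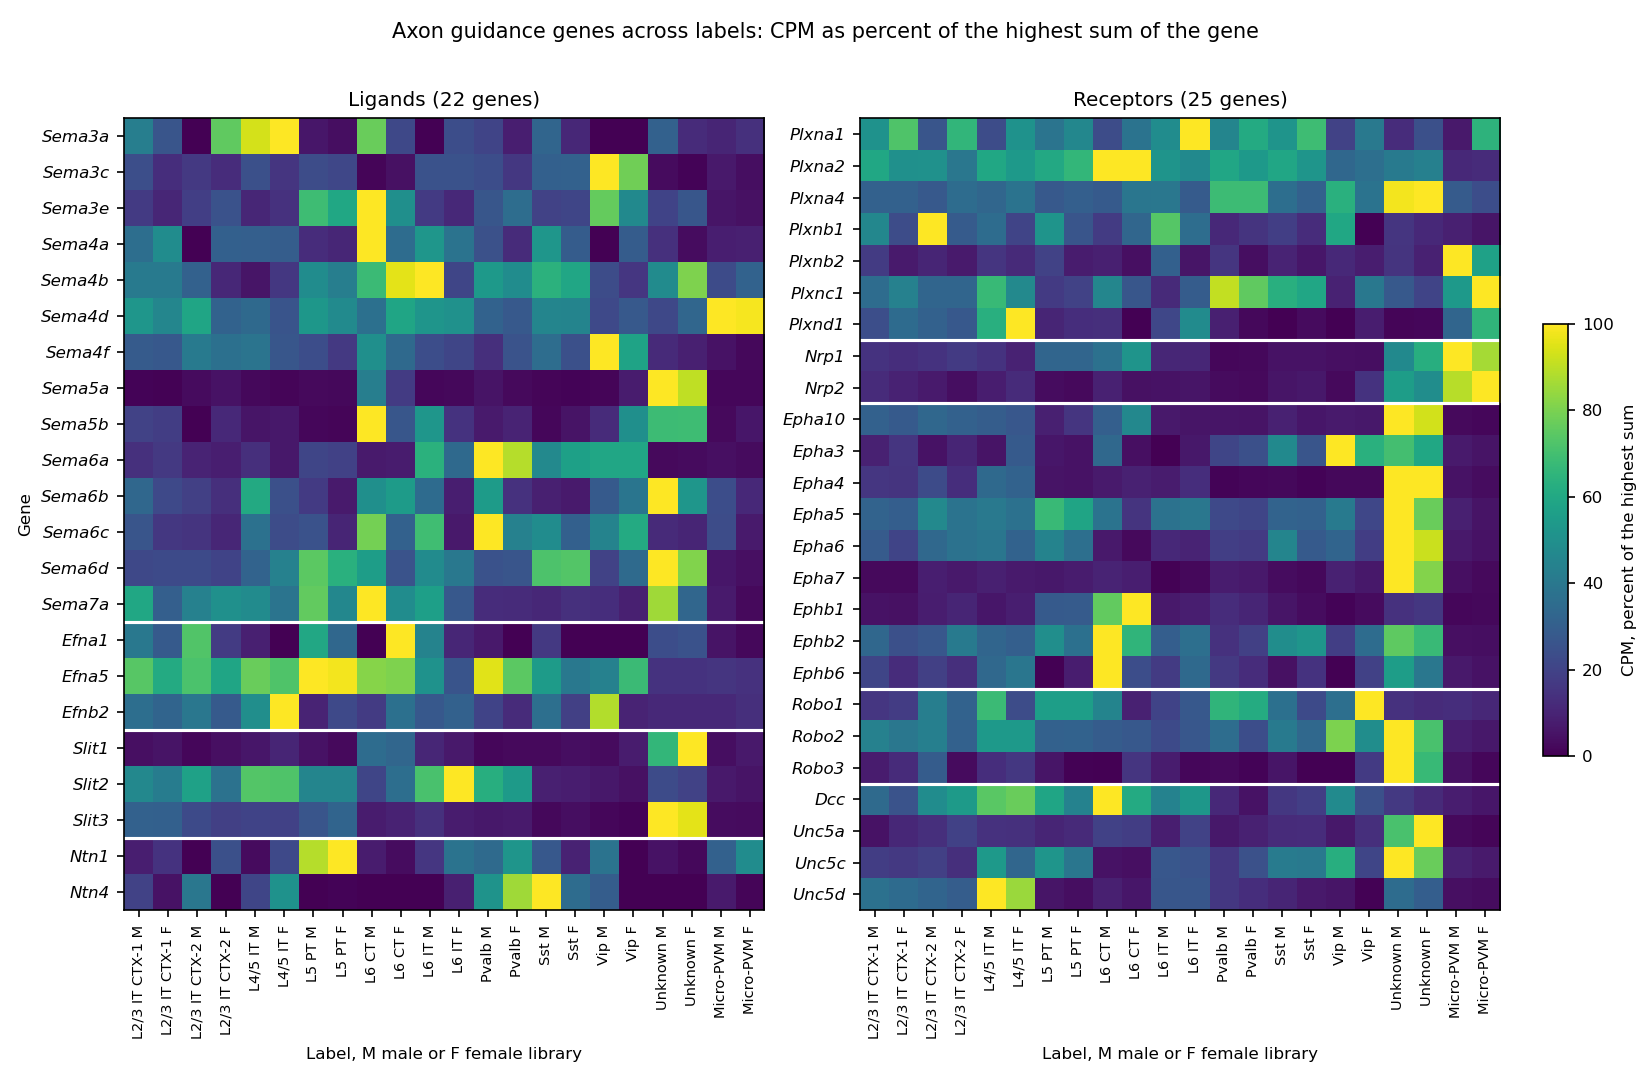
Levels of the 22 ligands and 25 receptors that passed the filter on low counts (vertical axis) in each label and library (horizontal axis), as CPM in percent of the highest sum of the same gene. Bright cells gather in the Unknown columns for Sema5a, Slit1, Slit3, Robo3 and most Eph receptors, in Micro-PVM for Nrp1, Nrp2, Plxnb2 and Sema4d, and in L5 PT for Ntn1.

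Every comparison used UMIs summed per label and library and an edgeR quasi-likelihood fit across all genes that passed a filter on low counts, with Benjamini-Hochberg (BH) adjustment over those genes and adjusted p below 0.05 as the criterion. A gene that met it is named as called. A contrast between groups of labels averages the log values of the labels with equal weight, so a label that stands far above the rest moves a mean CPM more than it moves the fitted log2 fold change. Since labels were assigned from the same counts by mapping, the tests compare groups that the genes tested helped to define. Of the 58 members kept, 47 passed the filter (22 ligands and 25 receptors), and a member could pass through the label in which it was high, so counts are given beside the share of all genes tested that were called.

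Promoter sequences are shown for 4 members. Sema5a, a transmembrane semaphorin, had the largest log2 fold change of the ligands called in L6 CT and in Unknown neurons. Epha4, a receptor for both ephrin classes, had the largest decrease of the members called in inhibitory neurons. Ephb1 was called in every comparison, and Sema4d, a semaphorin of immune cells and oligodendrocytes, in 1. Each covers 300 bases from 250 before to 50 after the start site on the gene's strand in RefSeq, build GRCm38.p6, and 58 of the 68 members matched that table, with 74 promoters. Motifs of the family of factors to which Atf3 belongs were searched on both strands: TGANTCA, TGACGTCA, and TGACG, which is contained in TGACGTCA and so overlaps it. TGANTCA was present in 7.81% of all 32851 promoters and in 4.05% of the members' promoters (those of Sema4c, Sema4d and Sema6b). TGACGTCA was present in 1.79% of all promoters and in that of 1 member, Epha2, and TGACG in 20.8% of all and 13.5% of the members' promoters (10 members). A match is a description of the letters and not a binding site. All 4 promoters shown hold a match while most members' promoters do not, so they do not stand for the members as a whole. Capitals mark the match, which lies 28 bases after the start site in Sema5a (chr15:32244563-32244862, + strand), 57 bases before it in Epha4 (chr1:77515039-77515338, - strand), 3 bases before it in Ephb1 (chr9:102354644-102354943, - strand) and 239 bases before it in Sema4d (chr13:51748761-51749060, - strand, 1 of 3 promoters of that gene).
Sema5a: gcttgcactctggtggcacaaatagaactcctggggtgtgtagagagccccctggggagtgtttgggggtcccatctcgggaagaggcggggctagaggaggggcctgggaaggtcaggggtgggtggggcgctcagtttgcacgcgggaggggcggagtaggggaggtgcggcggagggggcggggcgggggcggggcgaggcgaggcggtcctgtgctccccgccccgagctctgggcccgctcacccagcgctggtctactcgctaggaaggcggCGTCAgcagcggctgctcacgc
Epha4: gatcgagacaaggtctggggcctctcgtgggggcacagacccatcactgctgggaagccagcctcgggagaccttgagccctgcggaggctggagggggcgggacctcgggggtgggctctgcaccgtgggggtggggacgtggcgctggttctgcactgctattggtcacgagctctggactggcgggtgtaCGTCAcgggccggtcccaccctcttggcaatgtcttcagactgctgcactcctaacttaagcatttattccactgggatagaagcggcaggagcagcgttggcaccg
Ephb1: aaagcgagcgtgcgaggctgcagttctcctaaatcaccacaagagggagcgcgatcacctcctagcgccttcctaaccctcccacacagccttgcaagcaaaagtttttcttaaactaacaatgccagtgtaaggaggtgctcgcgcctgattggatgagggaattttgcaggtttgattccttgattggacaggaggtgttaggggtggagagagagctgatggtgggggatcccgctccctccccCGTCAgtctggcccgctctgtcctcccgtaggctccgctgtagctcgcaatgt
Sema4d: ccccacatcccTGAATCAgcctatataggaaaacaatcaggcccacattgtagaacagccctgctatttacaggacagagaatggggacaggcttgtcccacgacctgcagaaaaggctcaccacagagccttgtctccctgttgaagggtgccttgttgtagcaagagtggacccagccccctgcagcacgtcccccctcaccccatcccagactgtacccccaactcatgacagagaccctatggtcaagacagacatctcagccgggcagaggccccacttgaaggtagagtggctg

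The comparison of L5 PT with L2/3 IT neurons sets the projection neurons that leave the telencephalon against those that stay within it. Netrin-1, the secreted attractant that acts through Dcc, was called higher among the ligands of L5 PT neurons, together with the semaphorins Sema3e and Sema6d. Among the receptors Ephb1, Unc5c, Robo1 and Nrp1 were higher and Unc5d and Epha4 lower in L5 PT. Of the 47 members tested 11 were called higher, where 7.08% of all genes tested were, and 5 were called lower, where 5.25% of all genes were. By role, 5 ligands were called higher and 1 lower of 22, and 6 receptors higher and 4 lower of 25. The median log2 fold change was 0.10 over the members and 0.02 over all genes, and the median size without sign 0.83 and 0.35. All 16 members called had the same sign in both libraries. With library as a block 20 members were called, the 16 among them, where 1788 of 9673 genes tested were.

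Ntn1 (ENSMUSG00000020902, chr11:68209364-68400823) was at 57.0 and 64.2 CPM in L5 PT neurons and at a mean of 2.71 and 12.6 CPM in the L2/3 IT labels. Both L5 PT sums lay above all 4 L2/3 IT sums, which ran from 0 to 15.6 CPM. The fitted log2 fold change was 2.93 ± 0.48 (SE; edgeR quasi-likelihood BH-adjusted p = 0.000124), while the log2 ratio was 5.11 in the male library alone and 2.46 in the female library alone. The call on Ntn1 was lost when nuclei were thinned to 2000 UMIs and when nuclei holding microglial UMIs were left out. No other annotated sum exceeded 33.6 CPM, the level in Pvalb neurons of the female library. Ntn1 UMIs were found in 60 of 352 male L5 PT nuclei (17.0%, exact Clopper-Pearson 95% interval 13.3 to 21.4%) and in 79 of 290 female ones (27.2%, 22.2 to 32.8%), at median depths of 3790 and 10700 UMIs. Of L2/3 IT CTX-1 nuclei 9 of 360 and 13 of 252 held it, and in Micro-PVM nuclei, at median depths of 1298.5 and 3012.5 UMIs, 2.37% and 7.36%. Thinning to 2000 UMIs keeps only nuclei with at least that many, 283 of 352 male L5 PT nuclei but 312 of 1690 male Micro-PVM nuclei. After thinning the shares were 7.07% and 8.13% in L5 PT, 1.42% and 1.26% in L2/3 IT CTX-1, and 4.81% and 4.88% in Micro-PVM. The intervals of L5 PT (4.37 to 10.7% and 5.22 to 11.9%) and Micro-PVM (2.72 to 7.81% and 3.95 to 5.94%) overlapped after thinning, and all such intervals here cover counting error only.

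Sema3e, a class 3 semaphorin that binds Plxnd1 without a neuropilin, was at 162 and 139 CPM in L5 PT and at 41.7 and 41.8 CPM in L2/3 IT neurons (log2 fold change 1.96 ± 0.24). Sema6d, a transmembrane ligand of A-class plexins, was at 1044 and 887 CPM against 310 and 298 CPM (1.75 ± 0.22). For both genes the L5 PT sums lay above every L2/3 IT sum, and the call on Sema6d was lost without nuclei holding microglial UMIs. Smaller differences were called for Sema6a (0.84 ± 0.25) and Efna5 (0.67 ± 0.19). Sema3a, the classical collapsing factor of growth cones, was called lower (-2.88 ± 0.78), but it was at 1.84 and 1.16 CPM in L5 PT against 6.62 and 15.8 CPM, the groups overlapped, and the log2 ratio was -0.13 (male) and -3.02 (female). None of the 3 Slits was called in this comparison, with log2 fold changes from -0.10 to 0.31.

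Ephb1 (ENSMUSG00000032537, chr9:101922128-102354693), a receptor for B-class ephrins, was at 274 and 279 CPM in L5 PT and at 61.1 and 71.6 CPM in L2/3 IT neurons. The 2 libraries nearly coincided and the groups did not overlap (log2 fold change 2.22 ± 0.21, edgeR quasi-likelihood BH-adjusted p = 1.1e-07). Nrp1, the co-receptor for Sema3a, was at 255 and 255 CPM against 115 and 117 CPM (1.22 ± 0.19). Free RNA held Nrp1 at 253 and 289 CPM, a level close to that in L5 PT, and the call on Nrp1 was lost when free RNA was subtracted. The netrin receptor Unc5c (1.53 ± 0.24), the Slit receptor Robo1 (1.26 ± 0.34), Epha5 (0.89 ± 0.21) and Epha7 (0.79 ± 0.21) were also called higher.

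Unc5d (ENSMUSG00000063626, chr8:28646717-29219636), a netrin receptor of upper cortical layers, differed in the opposite direction. It was at 91.3 and 56.4 CPM in L5 PT and at 541 and 501 CPM in L2/3 IT neurons, a log2 fold change of -2.76 ± 0.25 (edgeR quasi-likelihood BH-adjusted p = 6.75e-08). The highest Unc5d level of any label was that of L4/5 IT neurons, 1558 and 1321 CPM. Unc5d UMIs were found in 23.6% (19.2 to 28.4%) and 30.7% (25.4 to 36.3%) of L5 PT nuclei and in 60.3% (55.0 to 65.4%) and 69.0% (62.9 to 74.7%) of L2/3 IT CTX-1 nuclei, at median depths of 3703.5 and 7366 UMIs in the latter, and after thinning in 12.7% and 7.42% against 49.8% and 47.1%. In Micro-PVM nuclei the shares were 9.17% and 15.7%, and after thinning 6.41% and 10.0%, so the thinned share in L5 PT neurons of the female library was no higher than that background. Epha4 was at 38.6 and 34.7 CPM in L5 PT against 139 and 101 CPM (-1.59 ± 0.23), with no overlap, and free RNA held 120 and 111 CPM. Nrp2 (-1.28 ± 0.40) and Epha10 (-1.19 ± 0.22) were called lower as well. No plexin was called, with log2 fold changes from -1.17 to 0.45 over 7 tested, but Plxna2 and Plxnd1 were called with library as a block. The block also gained calls on Epha6 and Robo3.

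**Figure D2:**
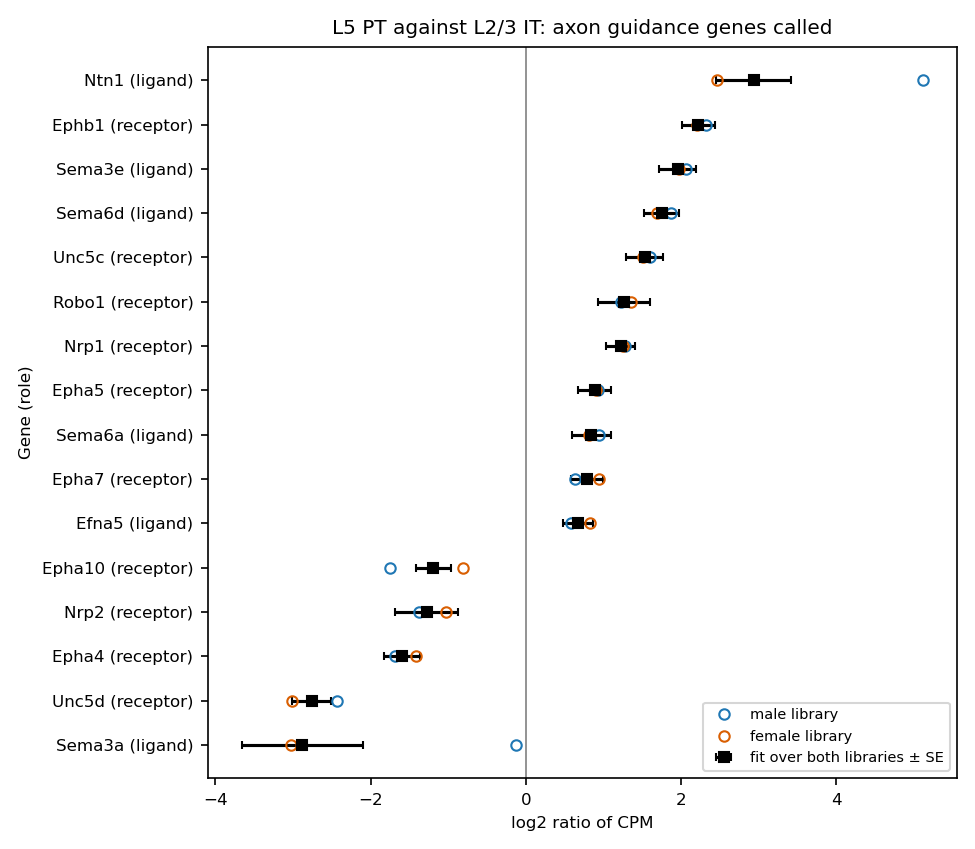
Log2 ratio of CPM (horizontal axis) in L5 PT over L2/3 IT neurons for the 16 members called (vertical axis); squares with bars are the fit over both libraries ± SE and open circles the ratio in each library with 0.5 CPM added. The libraries lie close together for most genes and far apart for Ntn1 (5.11 and 2.46) and Sema3a (-0.13 and -3.02).

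The other genes of the pathway were followed in a list of 81, with 28 surface or secreted proteins and 53 intracellular ones. Of 76 tested, 12 (15.8%) were called higher and 6 (7.89%) lower in L5 PT, against 7.08% and 5.25% of all genes. The median log2 fold change was 0.16. The cell adhesion molecule Dscaml1 was at 918 and 865 CPM against 251 and 137 CPM (2.37 ± 0.22). Limk1, a kinase that restrains cofilin, was at 66.1 and 30.4 CPM against 18.1 and 11.2 CPM (1.80 ± 0.35), and the semaphorin co-receptor Nrcam was higher by a log2 fold change of 1.30 ± 0.20. Lower in L5 PT were the Rac activator Dock1 (-2.29 ± 0.34), the Nogo receptor homologue Rtn4rl1 (-2.12 ± 0.33) and Lingo1, a partner of the Nogo receptor (-1.86 ± 0.36). Of the 16 calls 3, on Sema3e, Ephb1 and Unc5d, were kept in each of 13 alternative fits, where a member that no longer passed the filter counts as lost. Those on Sema6a, Efna5, Sema3a and Nrp2 were lost in 6 fits each. The number of members called in this comparison dropped to 8 with free RNA subtracted, where 350 of 8464 genes tested were called. It dropped to 10 with L2/3 IT CTX-2 alone as reference, where 652 of 9673 genes were called. Without nuclei holding microglial UMIs 4 members were called, where 79 of 4392 genes were. The main fit called 1193 of 9673 genes, so calls fell over all genes too.

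Inhibitory and excitatory neurons differed in both roles. The semaphorins Sema6a and Sema3c and the receptors Epha3 and Plxna4 were higher on average over the interneuron labels, with overlapping groups, while Slit3, Slit2, Sema7a, Nrp1 and Epha4 were lower. Of the 47 members tested 10 were called higher in inhibitory neurons, where 11.1% of all genes tested were, and 11 lower, where 11.8% of all genes were. Ligands made up 4 of the higher and 3 of the lower calls, receptors 6 and 8. The median log2 fold change was -0.23 over the members and -0.06 over all genes, and the median size 0.68 and 0.36. In 4 of the members called, all of them lower in inhibitory neurons, the 6 inhibitory and 12 excitatory sums did not overlap.

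Sema6a (ENSMUSG00000019647, chr18:47235598-47368870), a transmembrane semaphorin for plexins A2 and A4, had a mean of 226 and 225 CPM in inhibitory and of 71.3 and 50.6 CPM in excitatory neurons (log2 fold change 2.27 ± 0.14, edgeR quasi-likelihood BH-adjusted p = 1.41e-11). It was at 330 and 293 CPM in Pvalb, 155 and 188 CPM in Sst and 195 and 194 CPM in Vip neurons. The overlap with the excitatory sums came from L6 IT (211 and 112 CPM), the excitatory label with interneuron transcripts, and the other excitatory sums did not exceed 69.2 CPM. Sema6a UMIs were found in 53.8% (44.4 to 63.0%) and 73.3% (65.5 to 80.2%) of Pvalb nuclei, at median depths of 4576 and 11808 UMIs, in 13.1% (9.75 to 17.0%) and 18.3% (13.7 to 23.6%) of L2/3 IT CTX-1 nuclei and in 1.66% and 2.99% of Micro-PVM nuclei. After thinning the shares were 40.9% and 28.6%, 6.76% and 8.40%, and 1.28% and 1.68%.

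Sema3c, a secreted semaphorin, was highest in Vip neurons at 398 and 311 CPM, whereas Pvalb held 94.6 and 65.0 CPM and Sst 122 and 123 CPM (log2 fold change 1.43 ± 0.16 over the 3 labels). The excitatory sums of Sema3c ran from 4.78 to 100.4 CPM, so Pvalb neurons were not above them. Sema6c was called with a smaller lead (1.19 ± 0.39). Slit3 (ENSMUSG00000056427, chr11:35121224-35708507) was at a mean of 82.2 and 92.1 CPM in inhibitory and of 480 and 468 CPM in excitatory neurons. The highest inhibitory sum, 168 CPM, lay below the lowest excitatory sum, 182 CPM (-2.52 ± 0.17, edgeR quasi-likelihood BH-adjusted p = 4.07e-11). Slit2 was lower on average (-1.83 ± 0.17), yet its groups overlapped because Pvalb neurons held 317 and 276 CPM. Sema7a, a membrane-anchored semaphorin that promotes axon growth, was at 15.3 and 14.7 CPM against 79.6 and 49.99 CPM without overlap (-1.93 ± 0.30).

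Among the receptors Epha3 had a mean of 63.8 and 43.3 CPM in inhibitory and of 11.1 and 13.2 CPM in excitatory neurons (2.20 ± 0.33), with its highest sums in Vip neurons (114 and 72.2 CPM). Plxna4, a co-receptor subunit for class 3 semaphorins, was at 890 and 729 CPM against 496 and 535 CPM (0.66 ± 0.11), and Sst neurons, at 574 and 495 CPM, lay within the excitatory range. Robo1 (0.80 ± 0.22), Unc5c (0.79 ± 0.16) and Plxnc1 (0.76 ± 0.26) were called higher with overlapping groups. The sign of Robo1 turned to -0.34 without nuclei holding microglial UMIs, where it was not called (edgeR quasi-likelihood BH-adjusted p = 0.74).

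Epha4 (ENSMUSG00000026235, chr1:77367185-77515088) was at a mean of 13.5 and 11.6 CPM in inhibitory and of 111 and 103 CPM in excitatory neurons. All 6 inhibitory sums, up to 16.7 CPM, lay below all 12 excitatory sums, from 34.7 CPM up (-2.80 ± 0.21, edgeR quasi-likelihood BH-adjusted p = 3.87e-10). Nrp1 (ENSMUSG00000025810, chr8:128358604-128503363) was at 28.1 and 27.3 CPM against 163 and 176 CPM, again without overlap (-2.40 ± 0.17), and lost its call with free RNA subtracted. Plxnd1, the receptor of Sema3e, was at 2.10 and 3.06 CPM against 19.2 and 26.3 CPM (-2.66 ± 0.61), with the highest sums in L4/5 IT neurons (44.5 and 70.4 CPM). Epha10 (-1.61 ± 0.20), Dcc (-1.60 ± 0.16), Unc5d (-1.52 ± 0.17) and Ephb1 (-1.47 ± 0.20) were called lower with overlapping groups.

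**Figure D3:**
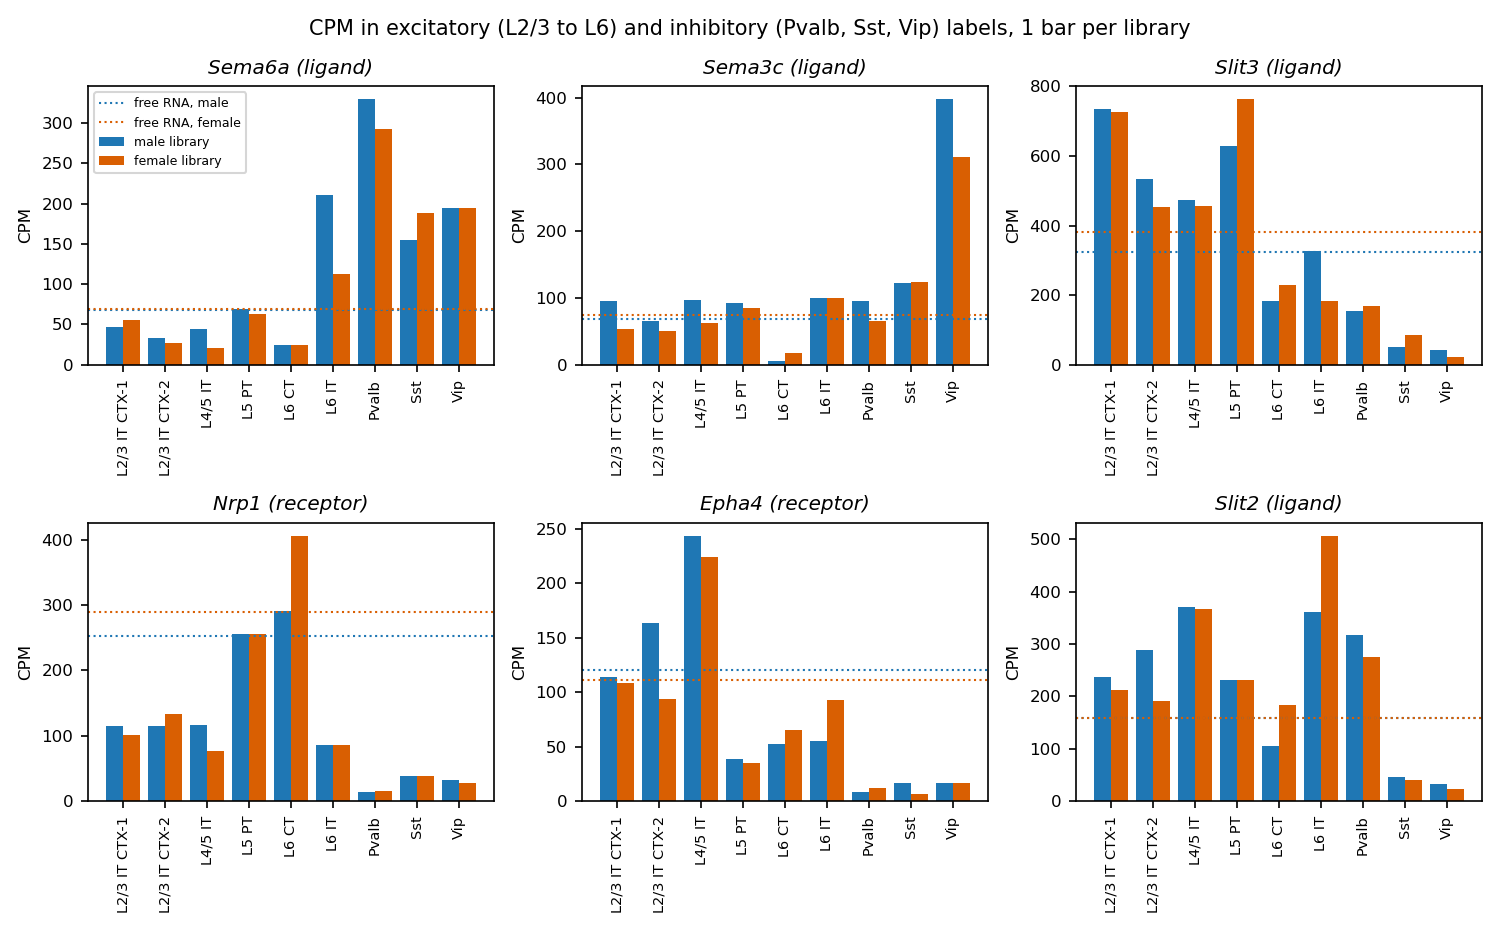
CPM (vertical axis) of 6 members in the 9 annotated labels (horizontal axis), 1 bar for each library, with dotted lines at the level in free RNA. Sema6a is highest in Pvalb (330 and 293 CPM) and Sema3c in Vip (398 and 311 CPM), Slit3, Nrp1 and Epha4 are low in all 3 inhibitory labels, and Slit2 is low in Sst and Vip but not in Pvalb.

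Of the pathway list 20 of 76 genes tested (26.3%) were called higher and 14 (18.4%) lower in inhibitory neurons, against 11.1% and 11.8% of all genes. The median log2 fold change was 0.12. The collapsin response mediators, which carry semaphorin signals to microtubules, included Dpysl5 at 78.2 and 63.7 CPM against 19.1 and 11.5 CPM (2.32 ± 0.22) and Dpysl3 at 391 and 269 CPM against 135 and 82.0 CPM (1.93 ± 0.16). Vav2, an exchange factor downstream of Eph receptors, was also higher (1.83 ± 0.24). The Nogo receptor Rtn4r was at 17.2 and 15.4 CPM against 97.5 and 91.6 CPM (-2.48 ± 0.19), Lingo1 was lower by a log2 fold change of -2.70 ± 0.33, and the plexin-binding GTPase Rnd1 by -2.12 ± 0.43. Of the 21 calls 9, on the ligands Sema3c, Sema6a, Sema7a, Slit2 and Slit3 and the receptors Dcc, Epha3, Epha4 and Ephb1, were kept in each of 11 alternative fits, while that on Plxnc1 was lost in 7 and that on Sema6c in 5. With library as a block Efna1, Robo2, Sema4d and Slit1 were called too. With free RNA subtracted 13 members were called between the classes, where 1190 of 8464 genes tested were. Without nuclei holding microglial UMIs 11 members were called, where 347 of 4392 genes were.

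L6 CT neurons, which project to the thalamus, were set against the other 5 excitatory labels. They held more of the semaphorins Sema5a, Sema5b and Sema3e, of Slit1, and of the receptors Ephb1, Nrp1 and Ephb2, and less of the receptors Epha6, Unc5c and Unc5d. Of the 47 members tested 11 were called higher, where 4.15% of all genes tested were, and 8 lower, where 3.66% of all genes were. These were 5 ligands and 6 receptors higher and 4 ligands and 4 receptors lower. The median log2 fold change was 0.32 over the members and -0.00 over all genes, and the median size 1.03 and 0.39. L6 CT is a small group, with 41 and 44 nuclei.

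Sema5a (ENSMUSG00000022231, chr15:32244810-32696341), which can attract or repel depending on the proteoglycans around it, was at 248 and 101 CPM in L6 CT and at a mean of 11.6 and 12.6 CPM in the other excitatory labels. Both L6 CT sums exceeded all 10 others, which reached 27.3 CPM at most (log2 fold change 3.86 ± 0.30, edgeR quasi-likelihood BH-adjusted p = 3.56e-09). Its UMIs were found in 36.6% (22.1 to 53.1%) and 34.1% (20.5 to 49.9%) of L6 CT nuclei, at median depths of 4473 and 10343.5 UMIs, against 1.60% and 3.59% of Micro-PVM nuclei. After thinning the shares were 30.6% and 13.6% in L6 CT and 1.92% and 2.52% in Micro-PVM. Slit1 was at 100 and 94.3 CPM against 15.7 and 16.5 CPM, again without overlap (2.72 ± 0.32). Sema5b was at 66.9 and 17.95 CPM against 10.7 and 6.98 CPM with overlapping groups (2.70 ± 0.53), and its log2 ratio was 3.84 (male) and 1.61 (female). Sema3e was at 234 and 117 CPM (1.79 ± 0.25) and overlapped only with L5 PT. Sema4b was called at low levels (1.56 ± 0.45).

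The ligands lower in L6 CT were Sema3c at 4.78 and 17.95 CPM against 89.9 and 70.0 CPM, without overlap (-2.49 ± 0.44), Slit3 (-1.23 ± 0.22), Sema6a (-1.14 ± 0.35) and Slit2 (-0.91 ± 0.21). For Sema3c the log2 ratio was -4.11 (male) and -1.93 (female). All 3 Slits were thus called between L6 CT and the other excitatory neurons, Slit1 higher and Slit2 and Slit3 lower. The call on Slit2 was lost when thinned, with labels of at least 20 nuclei, with free RNA subtracted and without nuclei holding microglial UMIs, and that on Slit3 in the last 2 of these.

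On the receptor side Ephb1 reached its highest level of any label, 736 and 969 CPM, against a mean of 104 and 117 CPM in the other excitatory labels (3.25 ± 0.17, edgeR quasi-likelihood BH-adjusted p = 2.44e-12). It was found in 78.0% and 100% of L6 CT nuclei, the latter being 44 of 44 with an exact interval from 91.96 to 100%, and in 2.60% and 6.84% of Micro-PVM nuclei. Thinned, Ephb1 was found in 66.7% and 72.7% of L6 CT and 2.56% and 4.67% of Micro-PVM nuclei. Nrp1 was at 291 and 406 CPM against 137 and 130 CPM (1.54 ± 0.17), and Ephb2 at 220 and 144 CPM against 75.7 and 74.3 CPM (1.22 ± 0.21). Plxna2 was called higher at 559 and 561 CPM against 317 and 289 CPM (0.90 ± 0.14), and Epha10 and Epha7 were called with log2 fold changes of 1.13 ± 0.22 and 1.01 ± 0.24. For Epha10 the value turned to -0.50 without nuclei holding microglial UMIs. Epha6 was at 90.8 and 31.4 CPM against 421 and 362 CPM, without overlap (-2.72 ± 0.30). Unc5c was at 28.7 and 24.7 CPM against 207 and 156 CPM, also without overlap (-2.63 ± 0.37), and Unc5d was lower by -1.85 ± 0.26. Epha5 was called with -0.75 ± 0.23, but its log2 ratio was -0.23 (male) and -1.46 (female) and its fitted value turned to 0.26 without nuclei holding microglial UMIs. Of the pathway list 10 of 76 genes tested (13.2%) were called higher and 11 (14.5%) lower in L6 CT, against 4.15% and 3.66% of all genes. Of the 19 calls on members 4, on Sema3e, Sema5a, Slit1 and Ephb1, were kept in each of 11 alternative fits, and that on Sema6a was lost in 6. With library as a block Dcc and Plxnd1 were called too. With free RNA subtracted 11 members were called in L6 CT, where 269 of 8464 genes tested were. Without nuclei holding microglial UMIs only the male L6 CT sum was left, so calls are not counted there.

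Pvalb and Sst interneurons differed in Slit2 more than in any other member called. Pvalb neurons also held more Slit3, Sema6a, Efna5 and Plxna4, and Sst neurons more Sema6d, Ephb2, Nrp1 and Dcc. Of the 47 members tested 7 were called higher in Pvalb, where 3.68% of all genes tested were, and 6 lower, where 3.45% of all genes were. With library as a block, which pairs the sums of 1 pool, 20 members were called in place of 13, and the 13 were all among them. Of all 9673 genes tested 1068 were called with the block and 690 without it. The median log2 fold change was -0.06 over the members and -0.01 over all genes, and the median size 0.78 and 0.31. For each of the 13 members called the 2 Pvalb sums and the 2 Sst sums did not overlap, which with 2 sums on each side is a weak requirement.

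Slit2 (ENSMUSG00000031558, chr5:47983138-48307733), the best known ligand of Robo1 and Robo2, was at 317 and 276 CPM in Pvalb and at 45.2 and 39.6 CPM in Sst neurons (log2 fold change 2.80 ± 0.25, edgeR quasi-likelihood BH-adjusted p = 3.89e-08). Its UMIs were found in 47.9% (38.7 to 57.2%) and 72.7% (64.8 to 79.6%) of Pvalb nuclei, in 13.2% (8.57 to 19.2%) and 20.3% (14.0 to 27.8%) of Sst nuclei, at median depths of 3797 and 9031 UMIs in the latter, and in 4.44% and 8.43% of Micro-PVM nuclei. Thinned to 2000 UMIs the shares were 32.7% and 33.3%, 10.3% and 8.51%, and 4.49% and 5.03%. At equal depth the Sst interval of the female library, 4.48 to 14.4%, included the Micro-PVM share. The other ligands called higher in Pvalb were Slit3 at 155 and 168 CPM against 51.5 and 86.2 CPM (1.19 ± 0.26), Efna5 (0.84 ± 0.23) and Sema6a (0.83 ± 0.20). The ligand called lower was Sema6d, at 350 and 370 CPM in Pvalb and at 1010 and 1026 CPM in Sst neurons (-1.50 ± 0.27).

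Receptors higher in Pvalb were Epha7 (1.46 ± 0.26), Ephb1 at 125 and 102 CPM against 55.3 and 30.6 CPM (1.44 ± 0.27) and Plxna4 at 1090 and 1088 CPM against 574 and 495 CPM (1.03 ± 0.23). Receptors higher in Sst were Ephb2, at 108 and 115 CPM against 31.5 and 41.8 CPM in Pvalb (-1.53 ± 0.25), Nrp1 (-1.28 ± 0.32), Dcc (-1.21 ± 0.31), Epha6 (-1.02 ± 0.25) and Unc5c (-0.94 ± 0.27). For Dcc the log2 ratio was -0.55 (male) and -1.92 (female). Robo1 and Robo2 were not called in this comparison, but Robo1 was called with library as a block, when thinned, without the deepest nuclei, with no filter and in nuclei of the label's own cluster. Of the pathway list 3 of 76 genes (3.95%) were called higher and 8 (10.5%) lower, against 3.68% and 3.45% of all genes. Slit2 alone kept its call in each of 11 alternative fits. Only 4 members were called with free RNA subtracted, where 182 of 8464 genes tested were. Without nuclei holding microglial UMIs 3 members were called, where 79 of 4392 genes were.

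Unknown neurons stood apart from the 9 annotated labels in more members than any of the neuronal comparisons above. Their Eph receptors were called higher, as were both neuropilins, Slit1, Slit3, Sema5a, Robo3 and Unc5a, while Efna5, Sema6a, Sema3c and Ntn1 were lower. Of the 47 members tested 25 were called higher in Unknown neurons, where 20.7% of all genes tested were, and 12 lower, where 16.5% of all genes were. Ligands were called 8 times in each direction of 22 tested, whereas 17 receptors were called higher and 4 lower of 25. The median log2 fold change was 1.01 over the members, 1.51 over the receptors, -0.23 over the ligands and 0.01 over all genes. In 14 of the higher members both Unknown sums lay above all 18 annotated sums, and in 3 of the lower members below all of them.

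Sema5a was at 583 and 527 CPM in Unknown neurons, and the annotated sums ran from 4.54 to 248 CPM, the highest being L6 CT (log2 fold change 5.18 ± 0.17, edgeR quasi-likelihood BH-adjusted p = 3.06e-17). Its UMIs were found in 70.2% (63.8 to 76.1%) and 85.3% (79.1 to 90.3%) of Unknown nuclei, at median depths of 3314 and 7918 UMIs, and after thinning in 64.0% and 54.6%, against the 1.92% and 2.52% of thinned Micro-PVM nuclei. Slit3 was at 2373 and 2277 CPM, with 22.2 to 763 CPM in the annotated sums (3.45 ± 0.14), and was found in 220 of 225 and 170 of 170 Unknown nuclei (97.8 and 100%). The share of Micro-PVM nuclei with Slit3 UMIs was 10.7% and 20.6%, and after thinning Slit3 was found in 97.7% and 97.5% of Unknown and 5.77% and 12.95% of Micro-PVM nuclei. Slit1 was at 189 and 285 CPM, above the 4.73 to 100 CPM of the annotated sums (4.02 ± 0.19). The Slits did not move together, since Slit2 was at 115 and 99.6 CPM and was called lower (-0.51 ± 0.19), a value that turned to 0.12 with free RNA subtracted. Sema6d, at 1398 and 1133 CPM, was higher as well (1.44 ± 0.17).

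Lower in Unknown neurons was Efna5, at 136 and 134 CPM where the annotated sums ran from 239 to 922 CPM (-2.02 ± 0.20, edgeR quasi-likelihood BH-adjusted p = 1.4e-08). Free RNA held Efna5 at 418 and 483 CPM, above both Unknown sums. Sema6a was at 8.51 and 9.46 CPM against annotated sums from 21.1 to 330 CPM (-2.97 ± 0.28), and Sema4f at 12.8 and 9.46 CPM against 14.2 to 105 CPM (-1.46 ± 0.29). Sema3c was at 11.7 and 3.78 CPM (-3.38 ± 0.34) and overlapped only with L6 CT. Ntn1 (-2.44 ± 0.74) and Sema4a (-1.68 ± 0.60) were called at levels of a few CPM, and for Sema4a the log2 ratio was -0.10 (male) and -2.47 (female).

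All 9 Eph receptors tested were called higher in Unknown neurons. Epha7 was at 1061 and 863 CPM against annotated sums from 5.02 to 105 CPM (4.27 ± 0.12, edgeR quasi-likelihood BH-adjusted p = 5.82e-18). Epha4 was at 712 and 714 CPM against 6.26 to 244 CPM (4.06 ± 0.14). Both exceeded their level in free RNA, which was 159 and 170 CPM for Epha7 and 120 and 111 CPM for Epha4. Epha4 UMIs were found in 77.8% (71.8 to 83.0%) and 92.9% (88.0 to 96.3%) of Unknown nuclei and in 4.85% and 8.17% of Micro-PVM nuclei, and after thinning in 69.1% and 70.6% against 4.17% and 4.51%. Epha10 (2.89 ± 0.15), Epha6 at 1329 and 1222 CPM (2.31 ± 0.15), Epha3 (2.21 ± 0.31), Ephb6 (1.54 ± 0.48), Epha5 (1.51 ± 0.16) and Ephb2 (1.13 ± 0.16) followed. Ephb1 was called with 0.82 ± 0.18 although its mean CPM was 139 and 156 in Unknown and 160 and 191 over the annotated labels, where L6 CT alone stood at 736 and 969 CPM. The call on Ephb1 was lost with free RNA subtracted, and that on Ephb6 also when thinned, without the deepest nuclei, with labels of at least 20 nuclei and without nuclei holding microglial UMIs.

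Robo3, a divergent Robo receptor known from commissural neurons of the hindbrain and spinal cord, was at 132 and 88.9 CPM in Unknown neurons and at 0 to 38.2 CPM in the annotated sums (3.98 ± 0.38, edgeR quasi-likelihood BH-adjusted p = 4.81e-09). Its UMIs were found in 36.9% (30.6 to 43.6%) and 49.4% (41.7 to 57.2%) of Unknown nuclei and in 0.888% and 0.770% of Micro-PVM nuclei, and after thinning in 24.0% and 21.5% against 1.28% and 0.629%. Robo2 was higher too (1.34 ± 0.14), and Robo1 lower at 59.5 and 52.3 CPM against means of 182 and 164 CPM (-1.33 ± 0.35). Nrp2 was at 171 and 150 CPM with 7.23 to 44.4 CPM in the annotated sums (3.26 ± 0.18), and Nrp1 at 373 and 492 CPM, reaching beyond all of them but L6 CT (2.53 ± 0.14). Of the netrin receptors Unc5a was at 87.2 and 122 CPM against 6.02 to 24.4 CPM (2.91 ± 0.22), Unc5c (2.05 ± 0.17) and Unc5d (1.28 ± 0.17) were called higher, and Dcc was called lower at 179 and 129 CPM against means of 526 and 437 CPM (-1.23 ± 0.24). Of the plexins Plxna4 was higher (1.55 ± 0.14), and Plxnd1 (-2.60 ± 0.81) and Plxna1 (-1.15 ± 0.40) were lower.

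**Figure D4:**
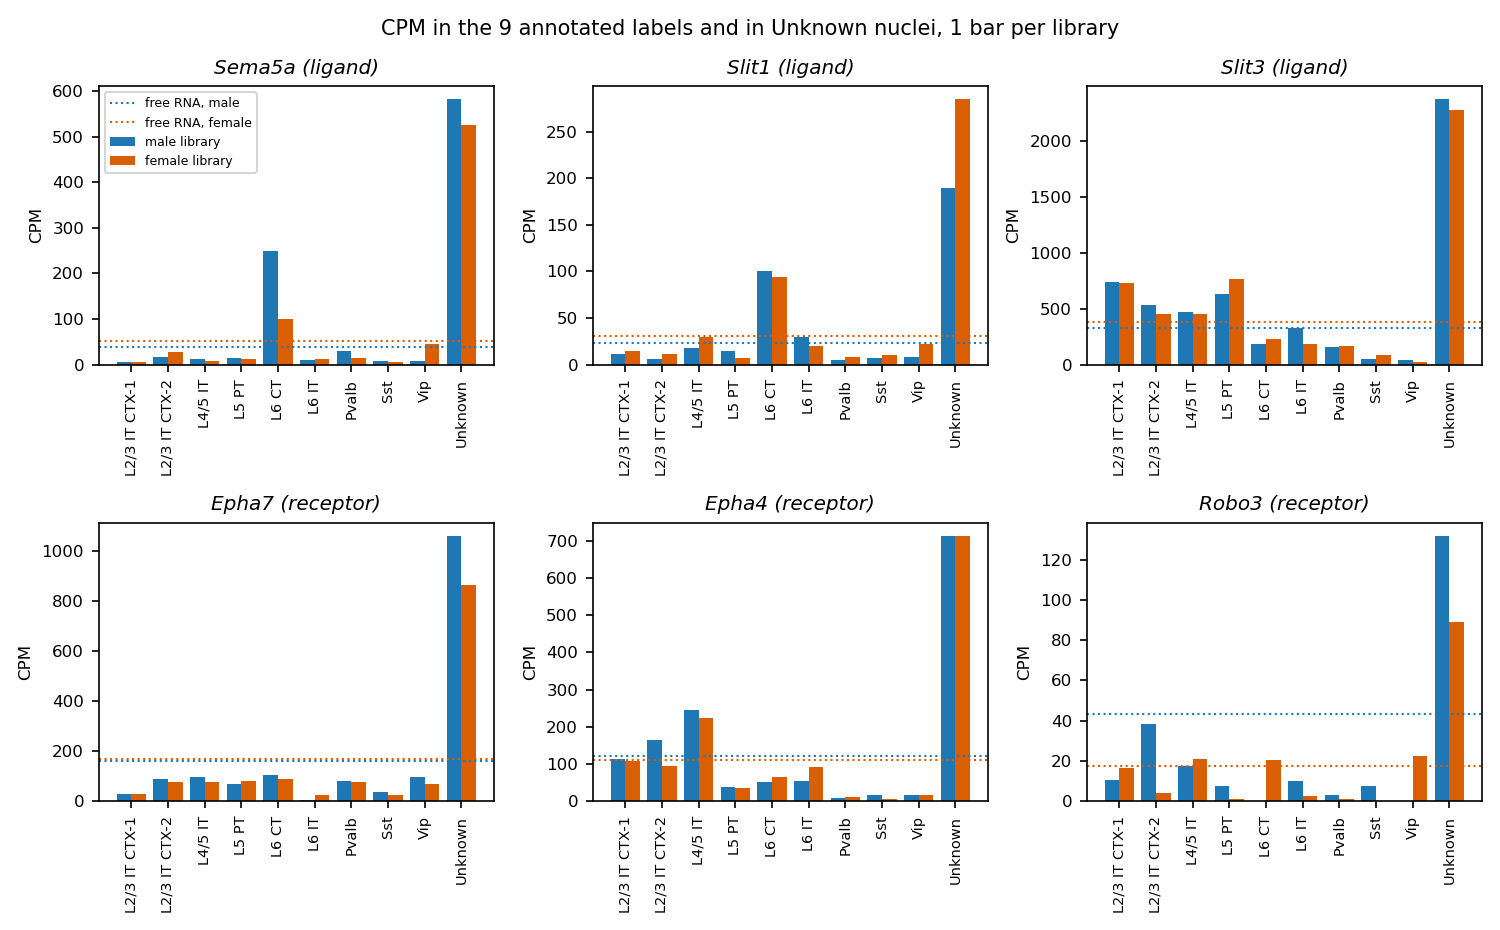
CPM (vertical axis) of 3 ligands and 3 receptors in the 9 annotated labels and in Unknown neurons (horizontal axis), 1 bar for each library, with dotted lines at the level in free RNA. Both Unknown bars exceed all 18 annotated bars in each panel, and L6 CT is the next highest label for Sema5a and Slit1.

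Of the pathway list 25 of 76 genes (32.9%) were called higher and 24 (31.6%) lower in Unknown neurons, against 20.7% and 16.5% of all genes. The median log2 fold change was -0.05. Microglial markers summed to 481 and 833 CPM in Unknown neurons, within their range over the annotated labels (323 to 1816 CPM), and all 10 had UMIs there. Oligodendrocyte markers, 4 of 5 with UMIs in each library, summed to 340 and 374 CPM in Unknown neurons, above the 38.2 to 175 CPM of the annotated sums, and the most abundant was St18 at 200 and 206 CPM. Astrocyte markers, 3 of 5 with UMIs in each library and Gja1 at 0 in both, summed to 321 and 283 CPM, within the annotated range, but Slc1a3 at 88.3 and 75.7 CPM was above the 45.2 CPM that annotated sums reached. The part of these markers in the Unknown results was not tested. Of the 37 calls 21 were kept in each of 11 alternative fits, among them those on Sema5a, Slit1, Slit3, Efna5, Sema6a, Epha4, Epha7, Robo3, Nrp2 and Unc5a, and the call on Slit2 was lost in 6. With library as a block Sema4d and Sema6c were called too. Without nuclei holding microglial UMIs 24 members were called, where 883 of 4392 genes tested were.

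Micro-PVM nuclei, the most numerous of the sort, were compared with the annotated neurons to show which guidance genes microglia hold. Both neuropilins, Plxnb2, Plxnd1 and Plxnc1 among the receptors and Sema4d among the ligands were higher in microglia. Ntn1 was called higher at levels close to those of pooled neurons. Of 49 members tested, with Sema4c and Sema4g added to the 47, 9 were called higher, where 35.1% of all genes tested were, and 32 lower, where 29.6% of all genes were. In the main fits Sema4c and Sema4g passed the filter on low counts only with the sums of Micro-PVM, where they were high. Their calls are counted among the 9 but are not read as a result. The median log2 fold change was -1.61 over the members and 0.10 over all genes. Microglial markers gave the label its identity, with Inpp5d at 1519 and 1500 CPM and Csf1r at 501 and 458 CPM.

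Sema4d was at 259 and 255 CPM in Micro-PVM nuclei, and the annotated neuronal sums ran from 56.8 to 153 CPM (log2 fold change 1.24 ± 0.14, edgeR quasi-likelihood BH-adjusted p = 3.67e-08). Free RNA held 126 and 151 CPM. Sema4g was at 51.7 and 23.1 CPM (2.93 ± 0.38) and Sema4c at 20.9 and 13.7 CPM (1.91 ± 0.29), both overlapping with neuronal sums. Ntn1 was called higher (1.04 ± 0.36) because its low labels count equally in the average, while the pooled annotated neurons held 23.0 and 30.98 CPM and Micro-PVM nuclei 20.1 and 31.3 CPM. The call on Ntn1 was lost with labels of at least 20 nuclei and without neuronal nuclei holding microglial UMIs.

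Nrp2 was at 274 and 307 CPM in Micro-PVM nuclei against 7.23 to 44.4 CPM in the annotated sums (3.95 ± 0.15, edgeR quasi-likelihood BH-adjusted p = 5.85e-17). Nrp1 was at 784 and 679 CPM against 14.2 to 406 CPM (3.08 ± 0.13). Both neuropilins also exceeded free RNA, at 68.3 and 126 CPM for Nrp2 and 253 and 289 CPM for Nrp1. Plxnb2, a receptor for Sema4c and Sema4d, was at 213 and 122 CPM against 7.74 to 65.3 CPM (2.91 ± 0.27), and free RNA held 257 and 96.8 CPM, so in the male library microglia did not exceed it. Plxnd1 (2.01 ± 0.35) and Plxnc1 (1.03 ± 0.22) were called with overlapping groups. Of the 9 members higher in microglia only Sema4d, Nrp1, Nrp2 and Plxnb2 kept their call in each of 10 alternative fits. The calls on Plxnd1 and Plxnc1 were lost without neuronal nuclei holding microglial UMIs, and those on Sema4c and Sema4g there and when thinned. Of the same 9 members 8 exceeded free RNA in both libraries. In the male library Sema4c (20.9 against 20.7 CPM) and Plxnd1 (22.9 against 22.8 CPM) were nearly level with it.

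The members lower in microglia were led by Sema4f (-3.33 ± 0.31), Ephb2 (-3.23 ± 0.22), Sema7a (-2.94 ± 0.39), Sema6d (-2.93 ± 0.25), Sema6a (-2.90 ± 0.22), Epha10 (-2.88 ± 0.24), Unc5a (-2.73 ± 0.37) and Sema3e (-2.53 ± 0.24). For each of these 8 the Micro-PVM sums lay below all annotated neuronal sums. Efnb2, a B-class ephrin, was lower in microglia (-1.29 ± 0.35) as it was in Unknown neurons, and Plxnb1, a plexin for Sema4d, was lower by -2.13 ± 0.47. All 9 Eph receptors tested and all 4 netrin receptors tested were called lower. With free RNA subtracted the calls on Epha3, Epha4, Epha7, Epha10, Ephb1, Ephb6, Unc5c and Unc5d were lost, and in nuclei of the label's own cluster those on Epha3, Epha4, Epha10 and Ephb6. Of the 32 members lower in microglia 31 were below their level in free RNA in both libraries. Of the pathway list 23 of 77 genes tested (29.9%) were called higher in microglia and 48 (62.3%) lower, against 35.1% and 29.6% of all genes. In all, 14 of the 41 calls were kept in each of 10 alternative fits, and Robo3 was called too with library as a block. With free RNA subtracted 23 members were called, where 4639 of 10076 genes tested were. Without neuronal nuclei holding microglial UMIs 22 members were called, where 2941 of 4809 genes were.

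**Figure D5:**
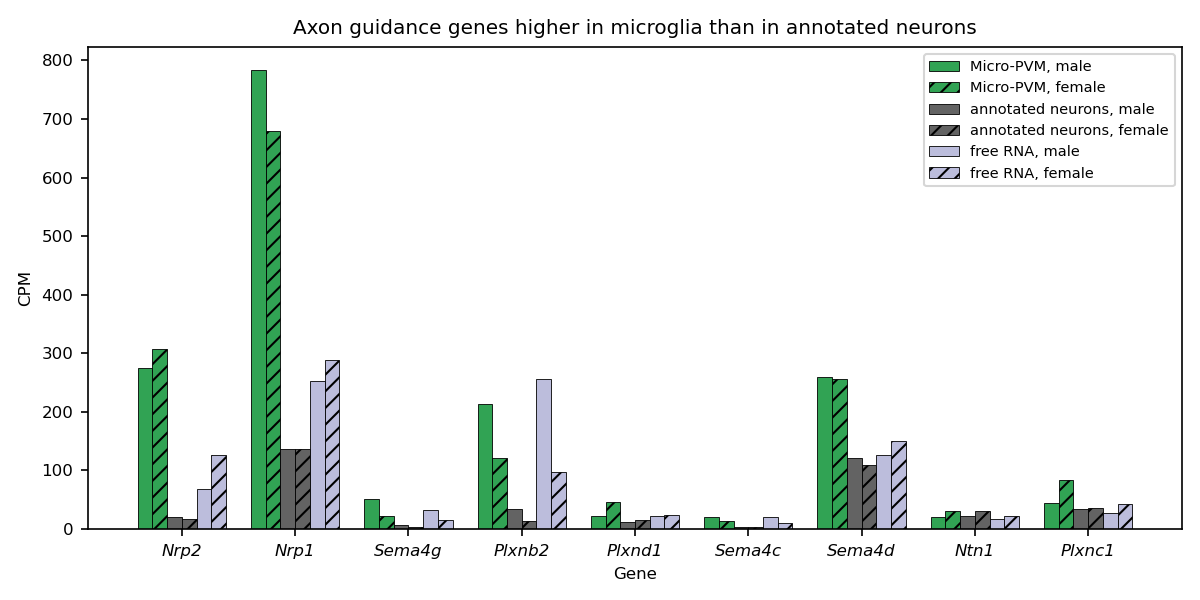
CPM (vertical axis) of the 9 members higher in Micro-PVM nuclei than in annotated neurons (horizontal axis), with the pooled annotated neurons and free RNA, in the male (plain) and female (hatched) library. Nrp1 (784 and 679 CPM), Nrp2 (274 and 307 CPM) and Sema4d (259 and 255 CPM) stand above both references in both libraries, and Ntn1 does not differ visibly from pooled neurons.

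Across the 6 comparisons, which share sums and so are not independent, 4 members were called in all: Ephb1, Nrp1, Sema6a and Unc5c. At the other end 11 of the 58 members kept were called in none, with 21 to 122 UMIs in annotated neurons. Of these Efna1 and Ntn4 were tested, and in alternative fits they were not always uncalled: Efna1 was called between inhibitory and excitatory neurons with library as a block, and both were with DESeq2. In the same group of 11 the ligands Efna2, Efna3, Efnb1, Efnb3 and Sema3d and the receptors Epha8, Ephb3, Unc5b and Plxna3 did not pass the filter on low counts. With no filter beyond 1 UMI, Efnb3 and Epha8 were called in Unknown neurons. Ntn4, a netrin of vessels and basement membranes, held 14.2 and 23.7 CPM in Pvalb and 27.6 and 9.74 CPM in Sst neurons. The 10 members under 20 UMIs, the ligands Efna4, Ntn5, Sema3b, Sema3f and Sema3g and the receptors Epha1, Epha2, Ephb4, Plxnb3 and Robo4, were not tested. Robo4, a receptor of vessel walls, had 0 UMIs in annotated neurons. Plxnb3, which had 3 UMIs there, was at 148 and 158 CPM in nuclei labelled as oligodendrocytes, and Efnb3 was at 92.5 and 102 CPM in the same nuclei. Oligodendrocytes numbered 26 and 42 nuclei, and no test was made on them.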

How the data were processed

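The count matrices deposited by the authors were used as they are. The submitters' notes name Cell Ranger 3.1.0, Seurat and DESeq2 and the mm10 build, while the file headers name later Cell Ranger versions. UMIs were summed per annotated label and library for labels with at least 50 nuclei, and tested with edgeR 4.0.16 (TMM, quasi-likelihood, Benjamini-Hochberg, threshold 0.05) in R 4.3.3. Alternatives included DESeq2 1.42.0, library as a block, thinning to 2000 UMIs, free RNA subtracted, nuclei with at least 2 microglial UMIs left out, and nuclei above the 95th percentile of depth left out against doublets. The sums of a library share their animals and so are paired: over 9247 genes the log2 difference between male and female sums correlated between labels at 0.0248 to 0.435 (median 0.143, 45 pairs, 34 over 0.1). Members and lists were chosen with earlier results of these data known. Genes named by rule are, per comparison and direction, up to 8 called members with the largest log2 fold change and the same sign in both libraries, per family the member with most UMIs, and 3 genes of the pathway list per direction. Some further called members are also named. Labelled nuclei of other types were left out of the tests. Coordinates are from GENCODE vM21 and sequences from RefSeq GRCm38.p6.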

Additional observations from a re-analysis of the deposited data

How the results depend on the processing

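Only 2 libraries exist, and sex, depth and library cannot be told apart. The labels come from the same counts, free RNA is present in all nuclei, and no uninjured neurons were analysed here. The cause of each change was not tested.

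Without nuclei holding microglial UMIs the members called were 4 in L5 PT against L2/3 IT, 11 in inhibitory against excitatory neurons, 5 in L6 CT (male sum only), 3 in Pvalb against Sst, 24 in Unknown and 22 in Micro-PVM. All genes called were 79, 347, 140, 79, 883 and 2941. The log2 fold change of Robo1, inhibitory against excitatory neurons, turned to -0.34 (edgeR quasi-likelihood BH-adjusted p = 0.740), and the log2 fold change of Epha5, L6 CT against other excitatory neurons, to 0.26 (edgeR quasi-likelihood BH-adjusted p = 0.997). Also turned, and not called, were Epha10 in L6 CT (-0.50) and, in Micro-PVM, Epha7 (0.30), Sema5a (0.66) and Sema5b (0.10).

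With free RNA subtracted the members called were 8, 13, 11 and 4 in the first 4 comparisons, 26 in Unknown and 23 in Micro-PVM. All genes called, in the same order, were 350, 1190, 269, 182 and 2052 of 8464 tested, and 4639 of 10076 in Micro-PVM. Nrp1 in Pvalb against Sst had no counts left there. Slit2 in Unknown (0.12) and Epha4 (1.31), Epha7 (1.19) and Sema5a (1.36) in Micro-PVM turned and were not called, as did Epha3 in Micro-PVM (0.22) in nuclei of the label's own cluster.

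Thinned to 2000 UMIs, the members called were 11, 19, 14 and 11 in the first 4 comparisons and 28 in Unknown. All genes called there were 602, 1096, 287, 404 and 2036 of 5587 tested. With L2/3 IT CTX-2 alone as reference 10 members and 652 of 9673 genes were called in L5 PT. With library as a block 20 members and 1068 of 9673 genes were called in Pvalb against Sst.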
